A study of Mus musculus with 8 samples.

Results

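Kinesins are motor proteins that use ATP to walk along microtubules or to take microtubule ends apart. The members followed here were the probe sets annotated to exactly 1 gene whose current symbol is Kif, a number and at most a letter and a digit. This gave 99 of 45101 probe sets, for 37 of 18193 named genes. Transcript signal was measured in mouse male germ cells on 8 arrays of the type Mouse 430 2.0, with 2 arrays for each of 4 stages: spermatogonia of type A, spermatogonia of type B, spermatocytes at pachytene, and spermatids of the round stage. All groups were total RNA from mice of strain BL/6-129 with no treatment named, and each array came from its own cell preparation, so p-values measure the spread between preparations. The age of the mice, the purification and its purity were not given in the sources used here. Of the 37 genes, 33 had signal above the array median on at least 2 of 8 arrays and were tested, among them 10 of 12 mitotic, 8 of 8 ciliary and flagellar, 12 of 12 transport and 3 of 5 other kinesins. Pairs of values below are MAS5 signals of replicate 1 and replicate 2, on a linear scale.

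Mitotic kinesins build the bipolar spindle, move and align chromosomes, and organise the midzone at which the cell divides. Transport kinesins carry vesicles, organelles and messenger ribonucleoproteins, and are best known from neurons. Ciliary and flagellar kinesins drive intraflagellar transport or sit in the axoneme, and round spermatids are the stage at which assembly of the sperm tail begins. In meiotic prophase, where pachytene cells are found, no spindle is present, and the meiotic divisions follow at its end.

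Promoter letters of 5 kinesins whose signals differ in course are given first, to show which of the searched motifs each carries. They are the 150 bases before the start site in RefSeq GRCm38.p6, on the strand of the gene, shown only for genes whose listed start equals the annotated gene start, which held for 10 of the 31 kinesins, out of 37, that had an entry. The motifs searched on both strands were the CHR element TTTGAA of cell cycle genes, the CCAAT box CCAAT, the E2F element GGCGGGAA, the X-box arm GTTGCC of ciliary genes and the CRE arm TGACGT, the letters of the cAMP response element. The capitals mark each match, and the opposite strand reads TTCAAA for the CHR element, ATTGG for the CCAAT box and ACGTCA for the CRE arm, so that the CRE arm overlaps its own opposite strand in TGACGTCA.
Kif11 at chr19:37376232-37376381, plus strand: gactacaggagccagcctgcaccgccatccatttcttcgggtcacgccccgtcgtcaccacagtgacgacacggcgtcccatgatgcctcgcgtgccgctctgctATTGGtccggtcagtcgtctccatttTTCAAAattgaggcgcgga
Kif4 at chrX:100625915-100626064, plus strand: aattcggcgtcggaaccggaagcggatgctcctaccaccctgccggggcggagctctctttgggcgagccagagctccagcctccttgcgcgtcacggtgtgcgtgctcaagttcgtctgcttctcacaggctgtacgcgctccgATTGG
Kif5c at chr2:49619136-49619285, plus strand: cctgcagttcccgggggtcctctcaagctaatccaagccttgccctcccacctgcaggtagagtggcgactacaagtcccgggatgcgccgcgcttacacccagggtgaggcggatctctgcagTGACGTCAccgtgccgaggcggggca
Kif2b at chr11:91577556-91577705, minus strand: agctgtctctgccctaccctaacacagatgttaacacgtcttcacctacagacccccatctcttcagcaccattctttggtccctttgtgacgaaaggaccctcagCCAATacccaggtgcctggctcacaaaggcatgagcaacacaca
Kif17 at chr4:138262101-138262250, plus strand: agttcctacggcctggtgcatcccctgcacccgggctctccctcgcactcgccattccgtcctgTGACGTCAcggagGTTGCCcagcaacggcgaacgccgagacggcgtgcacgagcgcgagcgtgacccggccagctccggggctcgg

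Kif11 held a CHR element and a CCAAT box, Kif4 and Kif2b a CCAAT box, Kif5c the CRE letters, and Kif17 both the CRE letters and an X-box arm. Over the same 150 bases of 27025 promoters, the CHR element occurred in 9.24%, the CCAAT box in 25.3%, the E2F element in 1.38%, the X-box arm in 6.66% and the CRE arm in 5.27%. Among 11 mitotic kinesins with an entry, 4 held a CHR element (Kif2c, Kif11, Kif15 and Kif22), 7 a CCAAT box and 2 an X-box arm (Kif18a and Kif23). Among 8 ciliary and flagellar kinesins, 3 held an X-box arm (Kif3a, Kif17 and Kif24), 4 a CCAAT box and 1 a CHR element (Kif27), and among 8 transport kinesins none held a CHR element or an X-box arm and 1 held a CCAAT box. The counts by role take every kinesin entry, also those whose listed start differs from the annotated gene start, which agreed for 10 of 31. These counts describe letters in a fixed window, in small groups, and were not tested. The CRE letters stood before both Kif17, which rose into spermatids, and Kif5c, which fell into pachytene.

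The labels were checked against marker genes, as sums of signal. Median signal over all probe sets was 41.5 to 51.9 in spermatogonia and 33.7 to 37.3 later. Type B replicate 2 stood apart from replicate 1. The 5 spermatid markers summed to 1454.9 in replicate 2 and 52.8 in replicate 1, against 70.0 to 70.9 in type A, 1952 to 2463 in pachytene and 19617 to 23481 in spermatids. The 5 pachytene markers summed to 14874 to 15567 in pachytene and 15385 to 15704 in spermatids, so their sum did not separate these stages. Of the 5, Piwil1 alone was called lower in spermatids than in pachytene, and none was called higher. In type A the pachytene sum was 1824 to 2105. It was 3232 on type B replicate 1 and 8682 on type B replicate 2, where Ldhc alone read 4896. Counts of calls in comparisons that use type B are therefore given with and without each of its arrays. The 5 spermatogonial markers summed to 3145 to 4963 on the spermatogonial arrays, 334 to 389 on the pachytene arrays and 833 to 845 on the spermatid arrays. Markers of somatic cells had signal too. The 5 peritubular, stromal and endothelial markers summed to 6989 to 9997 in spermatogonia, 637 to 817 in pachytene and 676 to 792 in spermatids. The 5 Sertoli cell markers summed to 1203 to 2641, 810.4 to 878 and 219.5 to 251. The 4 measured Leydig cell markers summed to 631 to 1497, 517 to 945 and 88.5 to 88.8, and the 5 macrophage and blood markers to 439 to 745, 165 to 168 and 324 to 356. No marker of these lists was at 0 on any array, and the part of somatic cells in the kinesin values was not tested.

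From type A spermatogonia to pachytene spermatocytes 19 of 33 tested kinesins changed, and the calls are given by role. Ciliary and flagellar kinesins rose in 4 of 8 cases (Kif9, Kif3b, Kif27 and Kif6) and fell in 1 (Kif7). Transport kinesins fell in 7 of 12 cases and rose in none, with Kif5b, the heavy chain of conventional kinesin, falling furthest among them. Of 10 mitotic kinesins, 4 fell (Kif4, Kif22, Kif23 and Kif11) and 1 rose (Kif2b). From pachytene cells to round spermatids the largest rises were those of Kif2b and Kif17.

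These calls came from a linear model over all 8 arrays (limma, adjusted p under 0.05 over 14155 genes, two-sided), fitted to log2(signal + 16), with ± for its standard error and n = 2 arrays against 2. The 4 stages share 1 spread per gene, so the type B pair also enters the standard errors and adjusted p of comparisons that do not use type B. Over genes, the standard deviation of the difference between replicates was 0.76 in type B and 0.34 to 0.43 in the other stages. A change at low signal is understated by the added 16. In pachytene against type A, 27.2% of all genes were called higher and 35.6% lower, 62.9% in either direction. Over all roles 6 of 33 kinesins (18.2%) were higher and 13 (39.4%) lower, a lower-called share near that of all genes. The 4 of 10 mitotic kinesins called lower are also near the share of all genes. Of the called kinesins, Kif13a and Kif26a lay above the array median on spermatogonial arrays alone, and Kif1a on spermatid arrays alone, so the signal filter kept them only where they were high. Kif2b lay above the median on 0 type A arrays, 1 type B array and all pachytene and spermatid arrays. Kif7 and Kif1c lay above it on all spermatogonial arrays, 0 pachytene arrays and 1 spermatid array. In pachytene against type A, Kif2b, Kif7 and Kif1c were thus above it only in the higher group. The median change was 0.84 log2 for ciliary and flagellar, -0.90 for transport and -0.33 for mitotic kinesins, against -0.14 for all genes. Quantile normalization, which moved the median of all genes by 0.20, gave 7 kinesins higher and 9 lower in place of 6 and 13. Arrays of pooled RNA cannot tell fewer cells of a type from less RNA per cell, and the scaling of each array to a common mean hides a change of total RNA per cell.

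**Figure D1:**
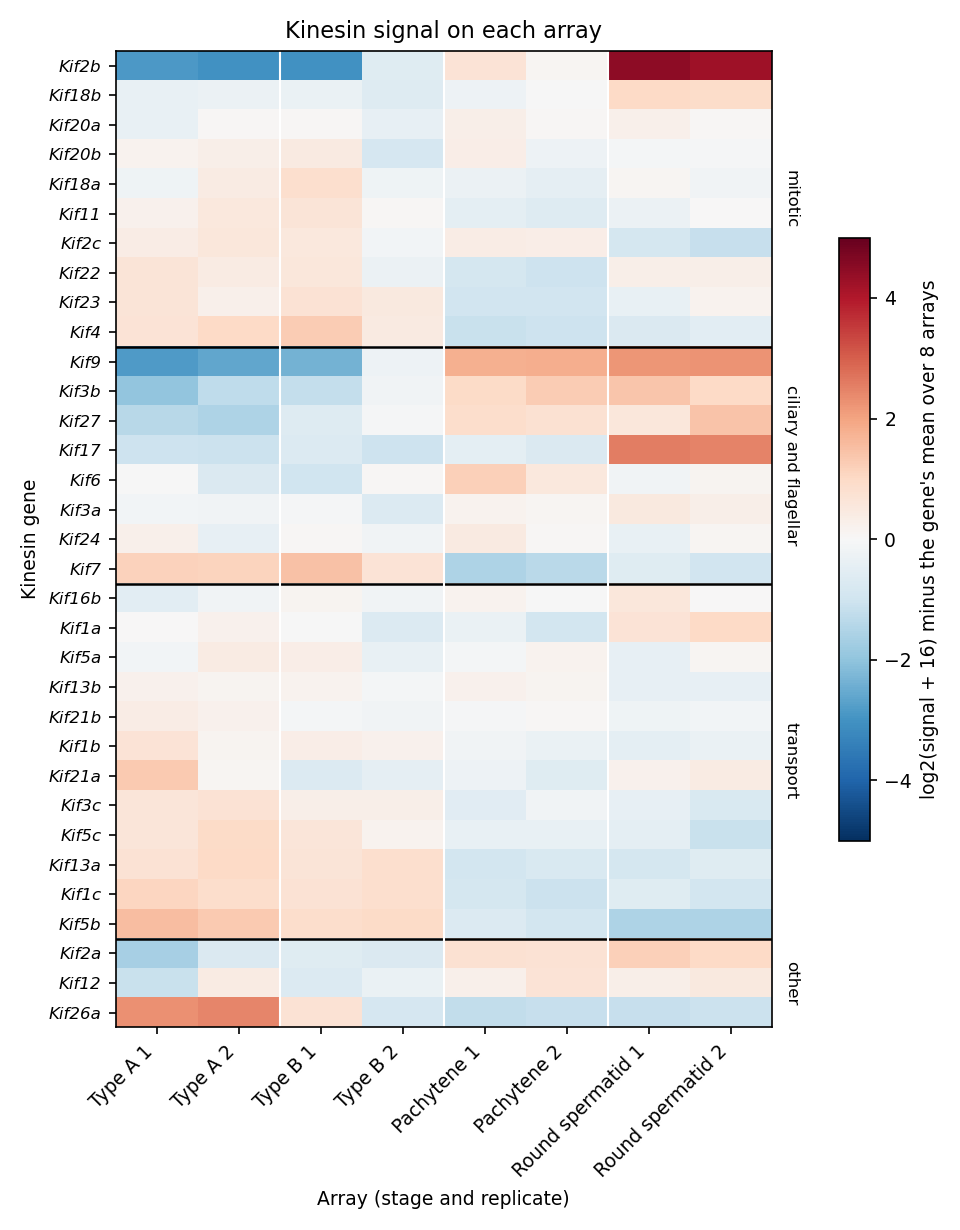
Colour gives log2(signal + 16) of each tested kinesin (rows, grouped by role) on each of the 8 arrays (columns), minus that gene's mean over the 8 arrays, from blue (below the mean) to red (above it). Kif9, Kif3b and Kif27 turn red on the pachytene and spermatid arrays, Kif17 and Kif2b are darkest on the spermatid arrays, and Kif5b, Kif1c and Kif13a are blue on the 4 later arrays.

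Kif4, Kif22, Kif23 and Kif11 were the mitotic kinesins that fell in pachytene spermatocytes. Kif4, a chromokinesin that also acts at the spindle midzone and the only X-linked member, read 251 and 309 in type A, 377 and 212 in type B, 60.6 and 64.2 in pachytene and 82.5 and 98.7 in spermatids. The pachytene pair lay below all 4 spermatogonial values, a change of -1.91 ± 0.28 log2 (adjusted p = 0.000563). Signal of Kif23, the motor of centralspindlin that is needed for cytokinesis, was 609.8 and 454 in type A, 649 and 537 in type B, 192 and 191 in pachytene and 294 and 430.0 in spermatids. It fell by 1.39 ± 0.25 log2 into pachytene (adjusted p = 0.00158), and the spermatid pair lay above the pachytene pair without reaching the type A pair. Averaging all its probe sets gave -0.76 (adjusted p = 0.00846). Such means, here and below, include probe sets that failed the signal filter.

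Kif22, a chromosome-arm motor that pushes chromosomes towards the spindle equator, showed a dip. Its signal was 1487 and 1238 in type A, 1415 and 766 in type B, 499 and 452 in pachytene and 1147 and 1148 in spermatids. The pachytene arrays were lowest, at -1.48 ± 0.29 log2 (adjusted p = 0.00231) against type A, and the spermatid arrays were higher again, at 1.24 ± 0.29 log2 (adjusted p = 0.0111) against pachytene. Kif11, the motor that pushes spindle poles apart, read 174 and 221 in type A, 242 and 153 in type B, 99.5 and 88.3 in pachytene and 117 and 150.3 in spermatids. Its change was -0.95 ± 0.26 log2 (adjusted p = 0.0122) against type A, and 0.44 ± 0.26 log2 from pachytene to spermatids with no call (adjusted p = 0.238). Its other 2 probe sets also fell into pachytene, and gave -0.51 and -0.41 log2 into spermatids, without a call. The call of Kif11 in pachytene was lost without type A replicate 2, at -0.79 (adjusted p = 0.0742), without pachytene replicate 2, at -0.88 (adjusted p = 0.0691), and after quantile normalization, at -0.58 (adjusted p = 0.0932).

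Kif2b rose, by more than any other mitotic kinesin changed. It encodes a microtubule depolymerase related to Kif2c. Its signal was 3.2 and 1.4 in type A, 1.3 and 77.4 in type B, 211 and 132 in pachytene and 3114 and 2644 in spermatids. Both type A arrays and type B replicate 1 were under 4, type B replicate 2 read higher, and the spermatid arrays stood far above all others. The change was 3.33 ± 0.65 log2 (adjusted p = 0.00248) from type A to pachytene and 3.97 ± 0.65 log2 (adjusted p = 0.00235) from pachytene to spermatids, a 15.7-fold rise of signal + 16. Kif2b depended on the number added before the logarithm: with 64 the first change was 1.81 (adjusted p = 0.00147), and with 1 it was 5.73 (adjusted p = 0.0123), where the second was 4.09 (adjusted p = 0.0699) and no longer called. All 5 spermatid markers were also called higher in pachytene than in type A, and their sum was higher in type B replicate 2. The part of spermatid RNA in the pachytene value of Kif2b was not tested.

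Among all mitotic kinesins 4 of 10 rose from pachytene cells to spermatids (Kif2b, Kif22, Kif18b and Kif23) and 1 fell (Kif2c), where 15.9% of all genes were higher and 19.0% lower, 35.0% in either direction. Over all roles 6 of 33 kinesins were higher and 3 lower in this comparison, against 5 and 1 after quantile normalization. In the same comparison 4 of 5 spermatogonial markers (Kit, Stra8, Dmrt1 and Crabp1) were called higher, with sums of 334 and 389 in pachytene and 845 and 833 in spermatids, as were 2 of 4 tested macrophage and 2 of 5 stromal markers. Of the Sertoli cell markers 4 of 5 were called lower, and of the tested Leydig cell markers 4 of 4. The part of any of these cells in the higher mitotic kinesins was not tested. Kif18b, which limits the length of astral microtubules, read 199 and 215 in type A, 207 and 166 in type B, 219 and 264 in pachytene and 545 and 509 in spermatids, and rose by 1.08 ± 0.20 log2 (adjusted p = 0.00416). Both spermatid arrays were above the other 6. The rise of Kif23 into spermatids was 0.84 ± 0.25 log2 (adjusted p = 0.0313), and it lost its call without pachytene replicate 1 (adjusted p = 0.124), pachytene replicate 2 (0.123) or spermatid replicate 2 (0.201), after quantile normalization (0.0532) and when all probe sets were averaged (0.0667), with values from 0.53 to 0.84. That of Kif22 kept its size, at 1.17 to 1.31, but gave adjusted p = 0.0507, 0.0689, 0.0606 and 0.0659 without pachytene replicate 1, pachytene replicate 2, spermatid replicate 1 and spermatid replicate 2. Each of these fits has 1 array in a group and assumes that it varies like the others.

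Kif2c, the centromere depolymerase that corrects faulty chromosome attachments, read 679 and 786 in type A, 764 and 471 in type B, 679.7 and 659 in pachytene and 274 and 227 in spermatids on the probe set used for the gene. That set fell into spermatids, at -1.37 ± 0.26 log2 (adjusted p = 0.00428), and gave -0.12 ± 0.26 log2 from type A to pachytene. Its other probe sets moved otherwise, as given with the probe sets. Kif18a, which damps chromosome movements at the metaphase plate and is known to be needed in testis, read 198 and 313 in type A, 434 and 197 in type B, 187 and 164 in pachytene and 249.6 and 204 in spermatids. Kif20a, which acts in cytokinesis, read 348 and 478 in type A, 474 and 341 in type B, 556 and 473 in pachytene and 545 and 481 in spermatids. Kif20b, its relative, read 259.9 and 285 in type A, 317 and 122 in type B, 292 and 191 in pachytene and 211 and 220.4 in spermatids. None of these 3 passed in pachytene against type A or in spermatids against pachytene, and their changes lay between -0.47 and 0.34 log2. Kif14 and Kif15, of cytokinesis and the spindle, stayed under 40 on every array and were not tested.

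**Figure D2:**
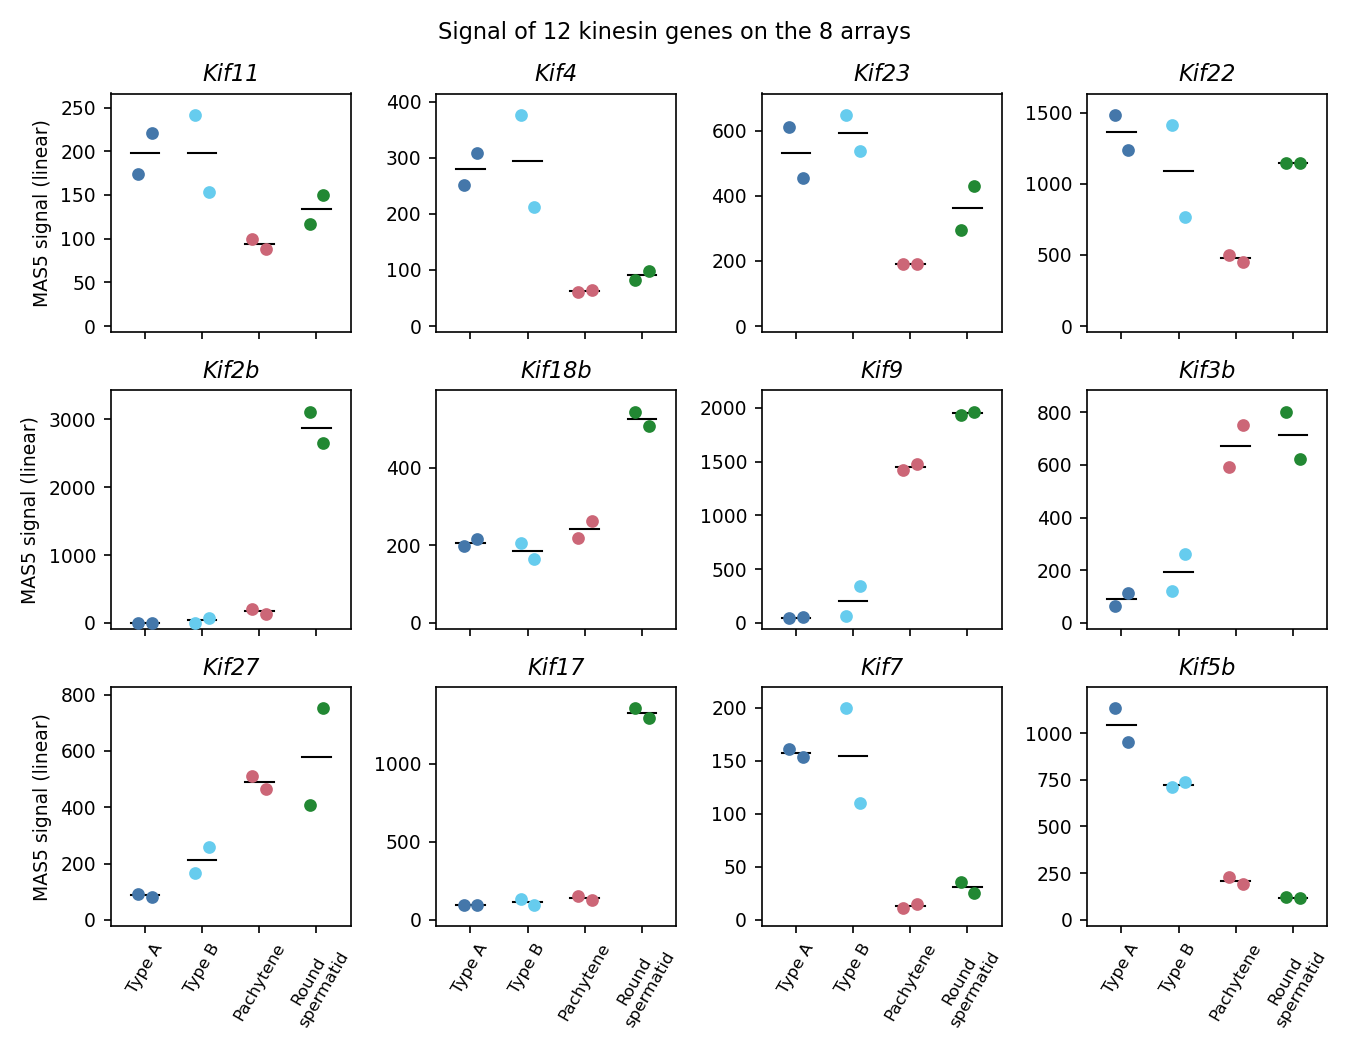
Points give the MAS5 signal of 12 kinesin genes on the 2 arrays of each stage, on a linear axis, and short black lines the mean of each pair. On the sets shown, Kif4, Kif23, Kif22 and Kif11 are lowest on the pachytene arrays. Among them only Kif22 and Kif23 were called higher in spermatids than in pachytene. Kif9, Kif3b and Kif27 are high on the pachytene and spermatid arrays. Kif2b, Kif18b and Kif17 are high on the spermatid arrays, and Kif7 and Kif5b are high on the spermatogonial arrays.

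Ciliary and flagellar kinesins were led by Kif9, a motor of the axoneme needed for sperm movement. Its signal was 42.7 and 53.7 in type A, 66.5 and 341 in type B, 1419 and 1478 in pachytene and 1929 and 1964 in spermatids. The 4 later arrays read 1419 or more, and type B replicate 2 was the highest of the spermatogonial values. Against type A the pachytene change was 4.52 ± 0.56 log2 (adjusted p = 0.000276), a 22.9-fold rise of signal + 16, and from pachytene to spermatids it was 0.42 ± 0.56 log2 (adjusted p = 0.617).

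Kif3b, a motor subunit of the heterotrimeric kinesin of intraflagellar transport, read 65.5 and 114 in type A, 122 and 262 in type B, 594 and 752 in pachytene and 803 and 621 in spermatids. It rose into pachytene by 2.74 ± 0.37 log2 (adjusted p = 0.000407), and the pachytene and spermatid pairs overlapped on this probe set. Kif3a, its partner subunit, read 646 and 635 in type A, 679 and 435 in type B, 815 and 769.9 in pachytene and 1014 and 892 in spermatids. The change of Kif3a into pachytene was 0.30 ± 0.24 log2 (adjusted p = 0.302), with no call. The third subunit, the non-motor Kifap3, read 186 and 199 in type A, 271 and 337 in type B, 488 and 421 in pachytene and 466 and 350.2 in spermatids, and rose by 1.17 ± 0.22 log2 (adjusted p = 0.00195) into pachytene. So 2 of the 3 subunits passed. Whether Kif3b and Kif3a differ in their change was not tested.

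Kif27, a relative of Kif7 linked to motile cilia, read 93.6 and 81.6 in type A, 165 and 261 in type B, 510.2 and 466 in pachytene and 408 and 751 in spermatids, and rose by 2.28 ± 0.32 log2 (adjusted p = 0.000471). Spermatid replicate 2 was the highest of its values and replicate 1 lay below both pachytene arrays. Kif6, known from the cilia of ependymal cells, read 72.4 and 38.1 in type A, 28.7 and 76.6 in type B, 187 and 114 in pachytene and 63 and 83.7 in spermatids, with 1.23 ± 0.40 log2 (adjusted p = 0.027) into pachytene. That rise was not called in 4 alternatives: it gave 0.88 (adjusted p = 0.162) without type A replicate 2, 0.91 (adjusted p = 0.161) without pachytene replicate 1, 1.46 (adjusted p = 0.0507) with 1 added in place of 16, and 0.56 (adjusted p = 0.207) over the mean of its probe sets.

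Kif17, a homodimeric motor of cilia that in spermatids is known to move a cofactor of the transcription factor CREM, was the spermatid member of the group. Its signal was 98.3 and 95.8 in type A, 131 and 97 in type B, 150.4 and 127 in pachytene and 1355 and 1295 in spermatids. The 6 arrays before the spermatid stage lay between 95.8 and 150.4 and both spermatid arrays lay far above them. The rise over pachytene was 3.12 ± 0.21 log2 (adjusted p = 5.51e-05), or 8.70-fold for signal + 16, and its call held under each alternative setting and each left-out array. From type A to pachytene it read 0.45 ± 0.21 log2 (adjusted p = 0.0903), and 0.83 after quantile normalization (adjusted p = 0.00946). The other 2 tested probe sets of Kif17 rose as well, by 3.94 ± 0.39 log2 (adjusted p = 0.000268) and 3.16 ± 0.22 log2 (adjusted p = 8.68e-05). On the sets used, Kif17 was the only 1 of 8 ciliary and flagellar kinesins called higher in spermatids, and none was called lower. There, 15.9% of all genes were called higher and 19.0% lower. Other sets of Kif3a and Kif3b were called lower in spermatids, as given with the probe sets.

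Kif7, a regulator of Hedgehog signalling at the tip of the primary cilium, was the exception among the ciliary kinesins. It read 161 and 153 in type A, 199 and 110.2 in type B, 11.4 and 15.4 in pachytene and 36.1 and 25 in spermatids, and fell by 2.56 ± 0.28 log2 into pachytene (adjusted p = 0.000171), with spermatid values above the pachytene pair and below all spermatogonial ones. With 64 added the change was -1.51 (adjusted p = 0.000261). In this comparison Kif7 lay above the array median only in the higher group, with 0 pachytene arrays above it. Its call therefore adds no support to a difference between kinesins of this role. From pachytene to spermatids Kif7 gave 0.66 ± 0.28 log2 (adjusted p = 0.106), and adjusted p = 0.0261 when the type B arrays were left out of the fit. Kif6 gave -0.87 ± 0.40 log2 (adjusted p = 0.134) there, and adjusted p = 0.045 without type B. Kif24, which keeps cilia from forming in cycling cells, read 162 and 96.6 in type A, 136 and 115 in type B, 189 and 137 in pachytene and 99.6 and 144 in spermatids and was not called in either comparison on this set. Its other tested set was called higher in pachytene against type A, at 0.56 ± 0.19 log2 (adjusted p = 0.0345).

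**Figure D3:**
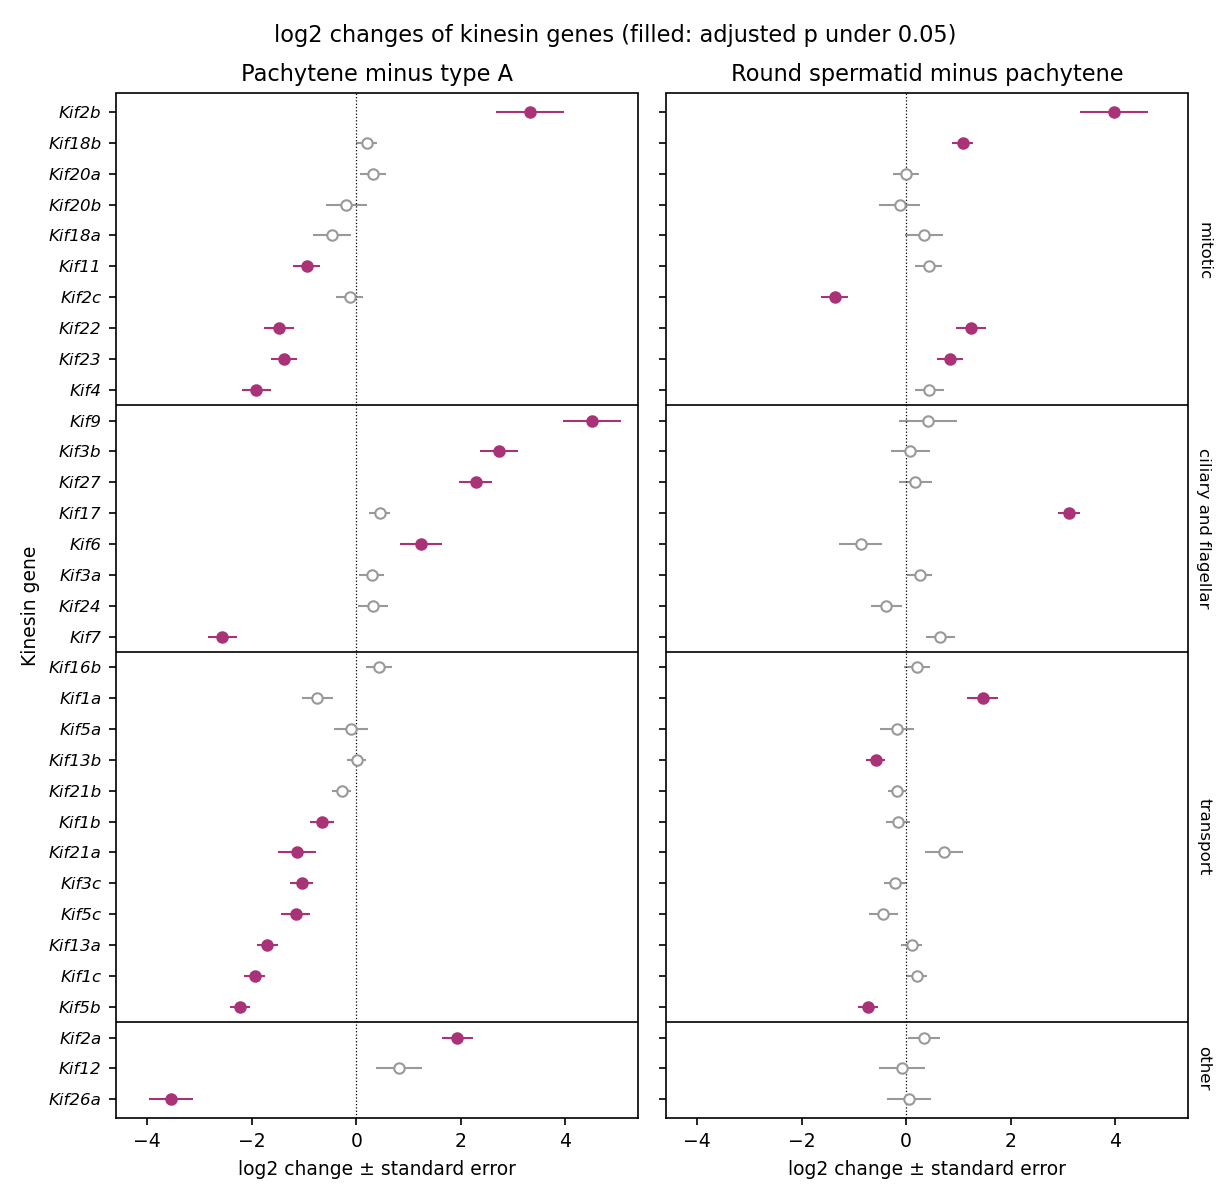
Points give the log2 change of each tested kinesin, with bars for the standard error, from type A to pachytene (left) and from pachytene to round spermatids (right), filled where the adjusted p was under 0.05. Kif9 and Kif3b lie furthest right among ciliary kinesins on the left side, 7 of 12 transport kinesins are filled and below 0 there, and Kif2b and Kif17 lie furthest right on the right side.

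The transport kinesins that fell into pachytene were Kif5b, Kif1c, Kif13a, Kif5c, Kif21a, Kif3c and Kif1b. Kif5b read 1132 and 951 in type A, 710.4 and 738 in type B, 228 and 191 in pachytene and 120.4 and 119 in spermatids. Every pachytene and spermatid value was below every spermatogonial one, at -2.23 ± 0.19 log2 (adjusted p = 9.95e-05) for pachytene against type A, and all 6 of its tested probe sets fell. Into spermatids it fell further, at -0.73 ± 0.19 log2 (adjusted p = 0.0201). That call was lost without pachytene replicate 1 or 2 (adjusted p = 0.139 and 0.0536), without spermatid replicate 1 or 2 (0.0822 and 0.0962), after quantile normalization (0.0683) and over the mean of its probe sets (0.11). Kif5c, the relative of Kif5b best known from neurons, read 128 and 168 in type A, 127 and 90.5 in type B, 56.3 and 57.3 in pachytene and 51.1 and 27.1 in spermatids, and fell by 1.16 ± 0.27 log2 into pachytene (adjusted p = 0.00612, and 0.0726 after quantile normalization). Kif5a, the other neuronal heavy chain, read 43.9 and 73.3 in type A, 67.9 and 34.8 in type B, 45.8 and 59.2 in pachytene and 34.4 and 55.7 in spermatids, low throughout and not called.

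Kif1c, a vesicle motor, read 162 and 141 in type A, 127 and 135 in type B, 30.7 and 24.2 in pachytene and 39.3 and 29 in spermatids, and fell by 1.95 ± 0.20 log2 into pachytene (adjusted p = 0.000152), or by 1.23 with 64 added and 0.69 over the mean of all its probe sets. Its other 2 tested sets gave -0.03 and -0.04. That mean also holds a set that failed the signal filter, at 46.9 and 5.5 in type A and 4.3 and 7.3 in pachytene. Kif13a, an endosome motor, read 80.3 and 98.5 in type A, 74.3 and 88 in type B, 14.7 and 18 in pachytene and 15.4 and 22.4 in spermatids. Its change was -1.70 ± 0.21 log2 (adjusted p = 0.000261), with -1.08 over the mean of its probe sets and -0.93 with 64 added, both called. Kif13a entered the test through the spermatogonial arrays alone, where it was high, so its call adds no support to a fall of the group. For Kif3c, a relative of Kif3b found in neurons, the values were 216 and 236 in type A, 171 and 172 in type B, 86.9 and 117 in pachytene and 98.1 and 73.9 in spermatids, a change of -1.04 ± 0.22 log2 (adjusted p = 0.00321). Kif1c, Kif13a and Kif3c kept their pachytene call under each setting and each left-out array, as did Kif5b. Kif1c lay above the array median on 0 pachytene arrays, and so only in the higher group of this comparison. Its call therefore adds no such support either. Of the stromal markers 4 of 5 were lower in the same comparison, and of the 4 tested macrophage markers 3, and the part of these cells in the lower transport kinesins was not tested.

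The calls of Kif1b and Kif21a were lost without single arrays. Kif1b, a motor for mitochondria and synaptic vesicles, read 361 and 244 in type A, 281 and 257 in type B, 193 and 174 in pachytene and 155 and 172 in spermatids, at -0.65 ± 0.23 log2 (adjusted p = 0.0335) for pachytene against type A. Without type A replicate 1 this was -0.39 (adjusted p = 0.197). It was not called without pachytene replicate 1 (0.0838), pachytene replicate 2 (0.149), either spermatid array (0.0534 for each) or after quantile normalization (0.105), and over the mean of its probe sets it was -1.18 (adjusted p = 0.00101). Kif21a, which restrains microtubule growth, read 263 and 107 in type A, 54.3 and 67.7 in type B, 78.8 and 59.1 in pachytene and 115 and 133 in spermatids. Type A replicate 1 was well above the other 7 arrays. The change of -1.13 ± 0.36 log2 (adjusted p = 0.0245) became -0.54 (adjusted p = 0.129) without that array and -1.72 (adjusted p = 0.00261) without type A replicate 2. It was not called without pachytene replicate 1 (0.052) or 2 (0.125), after quantile normalization (0.105) or over the mean of its probe sets (0.0987).

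In spermatids against pachytene cells, 1 transport kinesin was called higher and 2 lower of 12, no more than the 15.9% and 19.0% of all genes. Kif1a, the motor of synaptic vesicle precursors, read 32.7 and 40.5 in type A, 31.9 and 13.9 in type B, 22.1 and 9.6 in pachytene and 61.7 and 79.3 in spermatids. Both spermatid values were above the other 6 while staying below 80. On the other 6 arrays Kif1a lay below the array median, so it entered the test through the spermatid arrays alone and its call adds no support to a rise of the group. The fitted difference was 1.46 ± 0.30 log2 (adjusted p = 0.00617), or 0.75 with 64 added, and it is measured against signals in the lower part of the scale. The call was lost without pachytene replicate 2 (adjusted p = 0.0516), without spermatid replicate 2 (0.0554) and over the mean of its probe sets, at 0.34 (adjusted p = 0.368). Kif13b read 244 and 229 in type A, 236 and 196 in type B, 245 and 232 in pachytene and 154 and 153 in spermatids, at -0.58 ± 0.19 log2 (adjusted p = 0.0412), a call that was lost in 10 of 18 alternative fits, among them every fit without a type A, pachytene or spermatid array (adjusted p = 0.0553 to 0.182). Kif16b, which positions early endosomes, and Kif21b, a microtubule regulator of neurons, were not called in any comparison of all 8 arrays on the sets used. Another set of Kif16b was called higher in pachytene against type B, at 0.56 ± 0.19 log2 (adjusted p = 0.0339). Kif16b read 198 and 252 in type A, 320.1 and 254 in type B, 329.7 and 289 in pachytene and 439 and 293 in spermatids. Kif21b read 259.5 and 235 in type A, 183 and 175 in type B, 193 and 209 in pachytene and 170.2 and 182 in spermatids.

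The kinesins of other or mixed role held the member that fell furthest. Kif2a, a depolymerase of spindle poles and of growing axons, read 189 and 382 in type A, 412 and 377 in type B, 1098 and 1055 in pachytene and 1449.9 and 1286 in spermatids, and rose by 1.94 ± 0.30 log2 (adjusted p = 0.000767) into pachytene, or by 1.24 over the mean of its probe sets. All 4 of its tested probe sets were higher in pachytene. Kif26a, an atypical member without motor activity, read 227 and 255 in type A, 65.5 and 12.1 in type B, 5.5 and 6.6 in pachytene and 6.2 and 7.6 in spermatids. Its signal was above 200 on the type A arrays alone, intermediate on type B replicate 1 and under 13 on the other 5 arrays. The change from type A to pachytene was -3.54 ± 0.42 log2 (adjusted p = 0.000245), or -2.12 (adjusted p = 0.000112) with 64 added. Kif26a entered the test through the spermatogonial arrays alone, where it was high, so its call adds no support to a fall of the group. Of 5 Sertoli cell markers 4 were also lower in pachytene, with sums of 2641 and 1973 in type A and 810.4 and 878 in pachytene. In type B the Sertoli sums were 1202.5 and 1572.5, where Kif26a read 65.5 and 12.1. Also lower in pachytene than in type A were 5 of 5 spermatogonial, 4 of 5 stromal, 3 of 4 tested macrophage and 1 of 4 Leydig cell markers. The part of any of these cells in the value of Kif26a was not tested. Kif12 read 2 and 35.1 in type A, 7.9 and 14.3 in type B, 30.4 and 45.4 in pachytene and 31.4 and 37.8 in spermatids and was not called. It lay above the array median on only 1 pachytene and 1 spermatid array. For pachytene against type A it gave 0.82 ± 0.44 log2 (adjusted p = 0.137), and 1.57 (adjusted p = 0.00449) without type A replicate 2. For pachytene against type B it gave 0.99 ± 0.44 log2 (adjusted p = 0.0842), and was called after quantile normalization (adjusted p = 0.0428) and without type A replicate 1 or 2 (0.0109 for each). Kif26b and Kif28 were not tested, with Kif26b between 16.2 and 41.6 and Kif28 between 0.7 and 5.4 on all arrays.

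Between type A and type B spermatogonia limma called none of the 33 kinesins, and none of 14155 genes, so that 0.0% of all genes were called in either direction. At an unadjusted p under 0.05 it gave 3 kinesins higher and 4 lower, and 789 and 594 of all genes. The largest differences were -2.42 ± 0.42 log2 for Kif26a and 1.42 ± 0.56 log2 for Kif9. Leaving out type B replicate 1, so that type B rested on replicate 2 alone, gave 4 kinesins higher (Kif9, Kif2b, Kif3b and Kif27) and 2 lower (Kif26a and Kif20b) of 33, where 8.18% of all genes were higher and 1.40% lower, with Kif9 at 2.48 (adjusted p = 0.000196) and Kif2b at 2.35 (adjusted p = 0.00117). That array is the one with high spermatid and pachytene markers. Leaving out any other array gave no kinesin call in this comparison.

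Pachytene spermatocytes against type B cells gave 6 kinesins higher and 10 lower of 33, where 25.5% of all genes were higher and 32.7% lower (58.2% in either direction), and 7 and 7 after quantile normalization. This comparison shares the pachytene arrays with the one against type A. Kif9 stood at 3.09 ± 0.56 log2 (adjusted p = 0.00206), Kif3b at 1.81 ± 0.37 log2 (adjusted p = 0.00372) and Kif7 at -2.49 ± 0.28 log2 (adjusted p = 0.000272). Without type B replicate 1 these were 2.04 (adjusted p = 0.000241) for Kif9, 1.30 (adjusted p = 0.00961) for Kif3b and -2.11 (adjusted p = 0.000278) for Kif7. Without type B replicate 2 they were 4.15 (adjusted p = 2.7e-06) for Kif9, 2.31 (adjusted p = 0.000365) for Kif3b and -2.88 (adjusted p = 2.45e-05) for Kif7. Kif2b, at 2.19 ± 0.65 log2 (adjusted p = 0.0205) with all arrays, was 0.97 (adjusted p = 0.0211) without replicate 1, 3.41 (adjusted p = 2.67e-05) without replicate 2 and 1.88 (adjusted p = 0.107) without pachytene replicate 1. The count of kinesins called higher was 3 without pachytene replicate 1. Without type B replicate 1 the counts were 6 higher and 7 lower (23.2% and 28.8% of all genes), and without replicate 2 they were 6 and 11 (25.5% and 33.9%). Of the 16 calls, 9 were kept under every alternative that gave a value (Kif1c, Kif2a, Kif3b, Kif4, Kif5b, Kif7, Kif9, Kif13a and Kif23).

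Of the 33 tested genes, 18 had more than 1 tested probe set, and these did not always move together. All probe sets of a gene had the same sign for 16 of 18 genes from type A to pachytene and for 8 of 18 from pachytene to spermatids. A suffix of a, s or x marks probes shared by transcripts of 1 gene, by several transcripts, or partly by unrelated ones. For Kif2c the set used, of suffix x, was lower in spermatids, while another, at 250.2 and 348 in type A, 314 and 216 in type B, 326 and 342 in pachytene and 838 and 899.5 in spermatids, was higher by 1.34 ± 0.25 log2 (adjusted p = 0.00484), and the set of suffix a gave 0.80 ± 0.37 log2 (adjusted p = 0.145). The mean over the probe sets of Kif2c was 0.14 (adjusted p = 0.643), so no direction can be given for Kif2c as a gene.

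For Kif1b the set used read -0.15 ± 0.23 log2 from pachytene to spermatids, while the set of suffix a, at 124 and 135 in type A, 166 and 128 in type B, 91.4 and 104 in pachytene and 425 and 336 in spermatids, rose by 1.80 ± 0.22 log2 (adjusted p = 0.000684). Another, at 222 and 126 in type A, 152 and 178 in type B, 14.8 and 9.3 in pachytene and 35.3 and 37.5 in spermatids, was lower in pachytene and rose by 0.91 ± 0.27 log2 (adjusted p = 0.0372) into spermatids. Of the 7 tested sets of Kif1b, 2 were called higher in spermatids and none lower, while from type A to pachytene all 7 were negative and 5 were called lower. Kif3b was lower in spermatids on 3 of its 4 sets, between -1.08 and -0.77 log2 (adjusted p from 0.0127 to 0.0475), and gave 0.08 ± 0.37 log2 on the set used. Kif3a was lower on 2 of 4 sets, at -1.71 ± 0.24 log2 (adjusted p = 0.00143) and -1.03 ± 0.25 log2 (adjusted p = 0.0157), and gave 0.26 ± 0.24 log2 on the set used. Kif21a was lower on its other tested set, at -1.37 ± 0.31 log2 (adjusted p = 0.0108), against 0.73 ± 0.36 log2 on the set used, and Kif2a on 1 of 4 sets, at -0.83 ± 0.21 log2 (adjusted p = 0.0168). Probe sets of these genes thus gave different spermatid values. All probe-set values come from a fit of 24514 probe sets.

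**Figure D4:**
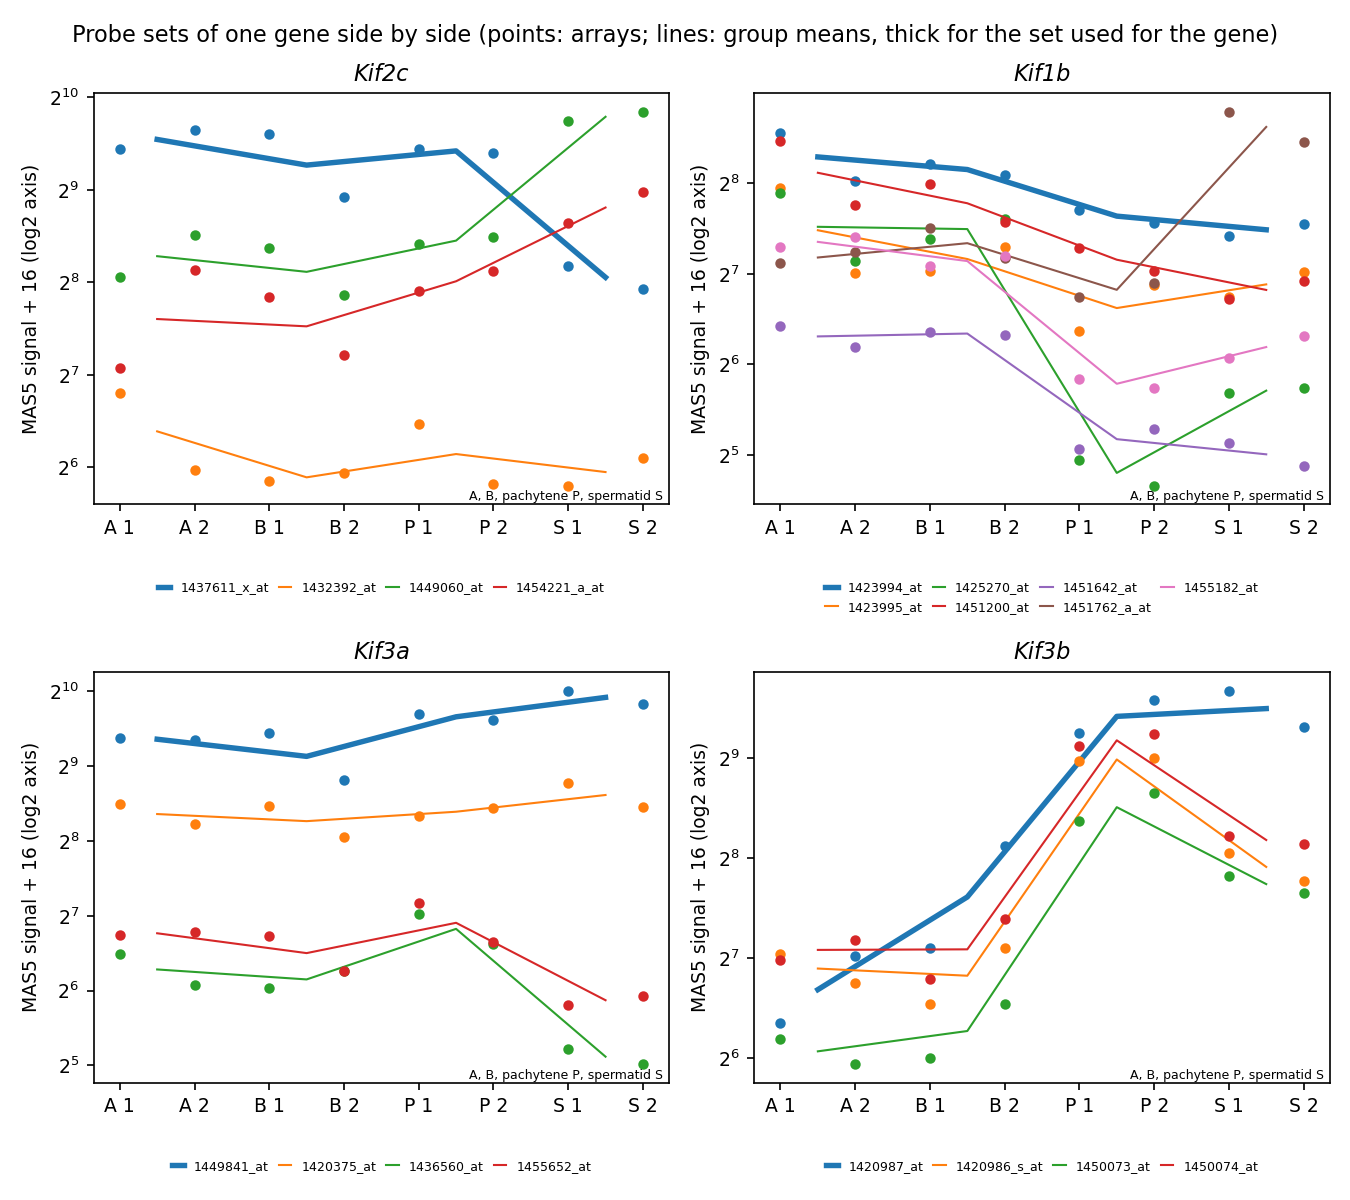
Points give signal + 16 on a log2 axis for each tested probe set of Kif2c, Kif1b, Kif3a and Kif3b on the 8 arrays (A, type A; B, type B; P, pachytene; S, spermatid), and lines join the group means on the log2 scale, thick for the set used for the gene. The Kif2c set used falls on the spermatid arrays while 2 others are higher there, 2 Kif1b sets rise, and 2 Kif3a sets and 3 Kif3b sets fall.

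Other parts of the kinesin machinery were followed through lists written with earlier results of these data known. Of 8 tested motors and partners whose symbols fall outside the naming rule, 2 rose into pachytene (Kifap3 and Kifc3) and 2 fell (Klc3 and Cenpe). These shares are no greater than the 27.2% higher and 35.6% lower of all genes. Kifc3, a minus-end motor, read 74 and 101 in type A, 102 and 79.6 in type B, 311 and 261 in pachytene and 207 and 267 in spermatids, at 1.55 ± 0.24 log2 (adjusted p = 0.000713). Klc3, a kinesin light chain known from the sperm tail, read 98.6 and 78.2 in type A, 96 and 96.5 in type B, 14.9 and 17 in pachytene and 106 and 114 in spermatids. It fell into pachytene, at -1.70 ± 0.19 log2 (adjusted p = 0.000188), and rose again into spermatids, at 1.98 ± 0.19 log2 (adjusted p = 0.000171), a dip on both pachytene arrays. Cenpe, the kinesin of the kinetochore, read 319 and 377 in type A, 316 and 185 in type B, 216 and 180.2 in pachytene and 379 and 278 in spermatids, with -0.77 ± 0.28 log2 (adjusted p = 0.0442) and then 0.68 ± 0.28 log2 (adjusted p = 0.104).

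Of 10 partners of the mitotic kinesins, 4 rose into pachytene (Aurka, Birc5, Prc1 and Cdca8) and 1 fell (Incenp). Of all genes, 27.2% were called higher and 35.6% lower there. Prc1, the microtubule bundler that binds Kif4 at the midzone, read 513 and 641 in type A, 592 and 465 in type B, 1532 and 1373 in pachytene and 566 and 568 in spermatids. It rose by 1.31 ± 0.21 log2 (adjusted p = 0.000904) where Kif4 fell, and was lower again in spermatids, at -1.33 ± 0.21 log2 (adjusted p = 0.00196). Racgap1, which forms centralspindlin with Kif23, read 448 and 562 in type A, 507 and 388 in type B, 425 and 455 in pachytene and 522 and 460.0 in spermatids, and gave -0.18 ± 0.22 log2 (adjusted p = 0.487). Aurka, a spindle kinase, rose by 2.59 ± 0.28 log2 (adjusted p = 0.000164). The median of the 10 partners was 0.25 log2, against -0.33 for the mitotic kinesins and -0.14 for all genes.

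All 12 intraflagellar transport genes, the cargo trains of the heterotrimeric kinesin, rose into pachytene, with a median of 1.96 log2 and a highest change of 2.96. In that comparison 27.2% of all genes were called higher. From pachytene to spermatids 6 of the 12 fell and 1 rose, with a median of -0.70, where 19.0% of all genes fell and 15.9% rose. Ift140 read 362 and 352 in type A, 309 and 943 in type B, 2903 and 2866 in pachytene and 2155 and 1847 in spermatids, at 2.96 ± 0.43 log2 (adjusted p = 0.000566), and Ift57 read 119 and 135 in type A, 123 and 208 in type B, 519 and 539 in pachytene and 1050.2 and 834 in spermatids, and rose in both steps, at 1.93 ± 0.26 log2 (adjusted p = 0.000408) and 0.81 ± 0.26 log2 (adjusted p = 0.0445). On the set used, Kif3b rose with them into pachytene and gave 0.08 ± 0.37 log2 into spermatids.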

How the data were processed

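The authors deposited 1 intensity per probe set and array; the submitters' processing notes name MAS5. The deposited intensities are linear and scaled: the mean, trimmed of 2% of probe sets at either end, is 125 on each of 8 arrays. The MAS5 version was not given in the sources used here. Genes came from the platform's annotation, updated through Entrez identifiers with a RefSeq GRCm38.p6 gene table: 34945 list 1 gene, 34741 of these matched, 932 list several and 9160 none. A gene took its probe set with the highest mean, and was tested where that set lay above the array median on at least 2 of 8 arrays. Values were analysed as log2(signal + 16) with limma 3.58.1 in R 4.3.3, with 1 mean per stage, eBayes without trend, 4 residual and 4.01 prior degrees of freedom, and Benjamini-Hochberg adjustment over 14155 genes in each of 4 comparisons. The procedure was tested on simulated data. Each of 4 stages has 2 preparations, and their number limits the precision.

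The text names each tested kinesin called in pachytene against type A or in spermatids against pachytene, up to 8 per role, and Kif3a, Kif3b, Kif4, Kif5b, Kif9, Kif11, Kif17 and Kif23. The members, roles and lists were chosen with earlier results of these data known. Alternatives were pseudocounts of 1 and 64, quantile normalization, centring on the 75th percentile, no filter, the mean of all probe sets, all probe sets as features, eBayes with trend, a replicate block, no type B arrays, and each array left out. The mean took every probe set that lists the gene alone, whether or not it passed the signal filter.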

Additional observations from a re-analysis of the deposited data

How the results depend on the processing

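Of the kinesins called with all arrays, 14 of 19 in pachytene against type A, 9 of 16 in pachytene against type B and 2 of 9 in spermatids against pachytene kept their call under every alternative that could be fitted. Quantile normalization gave 4 transport kinesins lower in pachytene against type A (7 as reported), and in spermatids against pachytene 1 kinesin and 0 transport kinesins lower (3 and 2 as reported). In that last comparison, 1 transport kinesin was lower when centred on the 75th percentile or with all probe sets as features. Over the mean of all probe sets it had 0 kinesins lower, 0 mitotic kinesins lower, and 0 transport kinesins higher or lower, and Kif2c turned to 0.14. Ciliary and flagellar kinesins higher in spermatids numbered 2 with a pseudocount of 1, and 2 higher and 1 lower without the type B arrays. Leaving out each array in turn gave, for type B against type A, 0 to 4 kinesins higher and 0 to 2 lower; for pachytene against type A, 5 to 6 and 10 to 14; for pachytene against type B, 3 to 7 and 7 to 11; and for spermatids against pachytene, 3 to 7 and 1 to 4. Of all genes, the same fits called 0 to 8.18% and 0 to 1.40%, 22.2 to 29.0% and 29.5 to 38.0%, 18.0 to 25.5% and 26.1 to 33.9%, and 11.2 to 19.1% and 9.59 to 23.6%. By role, the ranges for pachytene against type A were 3 to 4 ciliary and flagellar higher, 3 to 4 mitotic lower and 5 to 8 transport lower; for spermatids against pachytene, 1 to 2 ciliary and flagellar higher and 0 to 1 lower, 2 to 4 mitotic higher, and 0 to 2 transport higher and 0 to 2 lower. Where no cause is named, the cause was not tested. With the replicate number as a replicate block, kinesin calls were 0 and 0, 6 and 13, 7 and 10, and 6 and 3 in these 4 comparisons, the added call being Kif12 in pachytene against type B at 0.99 (adjusted p = 0.0411). The numbers pair nothing that the labels name: across genes, deviations of same-numbered arrays correlated between -0.17 and 0.17. With 2 arrays per stage, a missed call does not show an equal level.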
